A study of Mus musculus with 2 samples.

Results

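The autophagy and mitophagy genes described here are 40 mouse genes of the core autophagy machinery, its cargo receptors, the mitophagy receptors and 3 transcription factors that regulate them. They were chosen by gene symbol, and all 40 were found among the 43346 genes of the deposited tables. The assay was sequencing of total RNA above 200 nucleotides from G1E, an immortalised mouse line of erythroid progenitors labelled Gata1- (strain C57BL/6J, male, postnatal, age 0 day). Gata1 encodes the transcription factor that drives erythroid maturation. The labels give 1 group of 2 biological replicates, each library made from 1 ng of RNA with spike-in transcripts, and no treatment or wild-type control. Whether the replicates came from separate cultures is not stated, so the p-values below measure only the difference between these 2 libraries.

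Autophagy encloses cytoplasm in a double membrane that fuses with the lysosome. The ULK kinase complex starts the process, a class III phosphatidylinositol 3-kinase complex marks the membrane, and a pair of ubiquitin-like conjugation systems attach proteins of the LC3 and GABARAP family to it. Cargo receptors bind this family, and mitophagy receptors do so from the surface of mitochondria. Erythroid cells clear their mitochondria in this way late in maturation, and Bnip3l, also called NIX, is the receptor best known for it.

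Replicate 2 held 40597614 estimated counts in all and replicate 1 held 31649878. Nuclear protein-coding genes other than histones held 18.7% of them in replicate 2 and 26.6% in replicate 1, and the 40 genes together held 29040 counts in replicate 2 and 30097 in replicate 1. Levels are given as TPM, a transcript abundance scaled to transcript length and library size, which can be compared between genes. The median detected gene had a TPM 1.55-fold higher in replicate 1, so the SDs of TPM below include this difference in scale. For Gata1 itself, replicate 2 had 649 counts and replicate 1 had 798. The labels do not say which part of the gene is altered, so these counts do not test the label. All 7 erythroid progenitor markers were detected in both libraries, and none of 6 lymphoid markers had a count. Of the markers of other cells, 3 of 6 for megakaryocytes, 2 of 6 for mast cells, 0 of 7 for myeloid cells and 0 of 6 for fibroblasts and endothelium were detected in both libraries. Of 12 erythroid maturation markers 11 were higher in replicate 2 by at least 2-fold, with a median ratio of 11.5. Slc4a1, the band 3 anion exchanger of the red cell membrane, had 79.9 TPM in replicate 2 and 1.22 TPM in replicate 1. Alas2, the erythroid enzyme of haem synthesis, had 17.6 TPM in replicate 2 and 1.87 TPM in replicate 1. The maturation markers together summed to 1587 TPM in replicate 2 and 205 TPM in replicate 1.

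The promoters of 2 of the genes are shown, because Bnip3 was the highest of the 40 genes with a promoter motif match and Atg4d was the gene that differed most between the libraries. RefSeq (GRCm38.p6) gave 39 promoter windows for 33 of the 40 genes, each running from 250 bases before to 50 bases after an annotated start. Rb1cc1, Bnip3l, Pik3c3, Atg16l1, Atg12, Becn1 and Map1lc3a had no entry. Capitals mark a match to CACGTG, the core of the E-box element bound by Tfeb and Tfe3, or to AGATAA, a form of the GATA site.
Bnip3 promoter, chr7:138909457-138909756, minus strand: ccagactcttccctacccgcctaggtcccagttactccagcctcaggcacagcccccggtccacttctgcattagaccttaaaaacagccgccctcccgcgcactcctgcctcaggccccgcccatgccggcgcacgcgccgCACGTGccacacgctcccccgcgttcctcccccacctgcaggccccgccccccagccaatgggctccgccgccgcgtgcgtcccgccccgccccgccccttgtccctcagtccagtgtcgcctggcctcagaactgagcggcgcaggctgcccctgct
Atg4d promoter, chr9:21265035-21265334, plus strand: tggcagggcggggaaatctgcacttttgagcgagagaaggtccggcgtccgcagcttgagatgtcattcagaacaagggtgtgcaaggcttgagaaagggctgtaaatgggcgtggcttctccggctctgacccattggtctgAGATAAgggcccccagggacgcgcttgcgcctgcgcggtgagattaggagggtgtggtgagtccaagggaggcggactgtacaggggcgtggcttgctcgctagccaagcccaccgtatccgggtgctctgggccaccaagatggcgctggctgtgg
The Bnip3 match began 108 bases before the start and the Atg4d match 107 bases before it. On either strand, CACGTG stood in 5 of the 39 windows (12.8%; Atg3, Atg5, Atg7, Atg14 and Bnip3), and in 7.15% of all 32851 windows. AGATAA or its complement TTATCT stood in 2 windows (5.13%; Atg4a and Atg4d), and in 11.2% of all windows. GTAAACA or TGTTTAC, the site of forkhead factors such as Foxo3, stood in 0 of the 39 windows and in 3.65% of all. These are matches of letters in short windows and say nothing of binding. Atg4a has 2 windows, and its match lay in the one upstream of the start that its annotated transcripts use.

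RNA of nearly all of the machinery was detected in G1E cells. A TPM of at least 1 in both libraries was found for 37 of the 40 genes (92.5%), against 8345 of 21461 nuclear protein-coding genes (38.9%). The median over the 40 genes was 5.11 TPM in replicate 2 and 8.95 TPM in replicate 1, and over the detected nuclear protein-coding genes it was 6.08 TPM in replicate 2 and 9.31 TPM in replicate 1. Of the 40 genes 36 had a mean under 20 TPM. Bnip3l and Gabarap together held 42.8% of the summed TPM of the 40 genes in replicate 2 and 46.4% in replicate 1. TPM was higher in replicate 2 for 5 genes and higher in replicate 1 for 35, the direction of the scale difference.

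**Figure D1:**
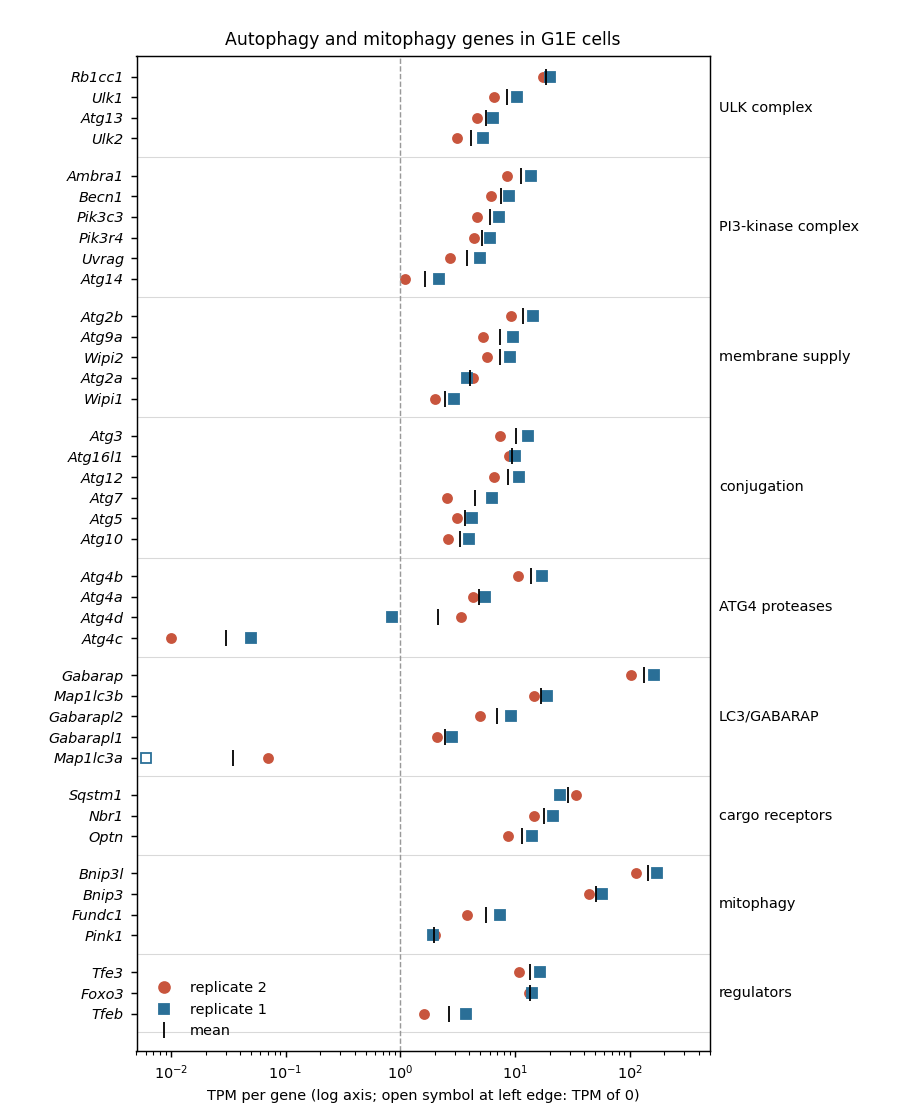
TPM per gene (log axis) of the 40 genes in G1E cells, grouped by role, with replicate 2 as circles, replicate 1 as squares and the mean as a bar; the dashed line is 1 TPM and the open symbol is a TPM of 0. Bnip3l and Gabarap lie above 100 TPM in both libraries, and Atg4c and Map1lc3a lie below 0.1 TPM.

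The mitophagy receptors held the gene with the highest TPM over all transcripts. Bnip3l (chromosome 14, 66985239 to 67008877, minus strand, GRCm38) had 115 TPM in replicate 2 and 172 TPM in replicate 1, a mean of 143 ± 40.8 (SD, n = 2). Bnip3 (chromosome 7, 138890836 to 138909519, minus strand), a related receptor of the outer mitochondrial membrane, had 44.5 TPM in replicate 2 and 57.2 TPM in replicate 1, a mean of 50.9 ± 8.99. Both were well above the other members of this role. Fundc1, another outer membrane receptor, had 3.85 TPM in replicate 2 and 7.42 TPM in replicate 1. Pink1, a kinase that marks damaged mitochondria, had 2.01 TPM in replicate 2 and 1.93 TPM in replicate 1.

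Among the LC3 and GABARAP proteins, which are attached to the autophagosome membrane, a single gene carried most of the RNA. Gabarap (chromosome 11, 69991143 to 69994951, plus strand) had 102 TPM in replicate 2 and 164 TPM in replicate 1, a mean of 133 ± 44.0 (SD, n = 2). Of the summed TPM of the 5 family members it made up 82.6% in replicate 2 and 84.2% in replicate 1 (83.4% ± 1.14, SD, n = 2). Map1lc3b, the LC3 gene most used as a marker of autophagosomes, had 14.5 TPM in replicate 2 and 19.0 TPM in replicate 1. Gabarapl2 had 4.91 TPM in replicate 2 and 9.15 TPM in replicate 1, and Gabarapl1 had 2.09 TPM in replicate 2 and 2.80 TPM in replicate 1. Map1lc3a had 2 counts in replicate 2 and 0 in replicate 1, at or below the floor of 3 counts. That floor corresponds to 0.0739 CPM (counts scaled to library size) in replicate 2 and 0.0948 in replicate 1.

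The cargo receptors were all detected. Sqstm1, which encodes p62, the receptor that joins ubiquitinated cargo to LC3, had 33.7 TPM in replicate 2 and 24.6 TPM in replicate 1. Nbr1, a receptor of similar design, had 14.6 TPM in replicate 2 and 21.3 TPM in replicate 1. Optn, a receptor used in mitophagy and in the clearance of bacteria, had 8.73 TPM in replicate 2 and 14.2 TPM in replicate 1. Sqstm1 was 1 of the 5 genes with the higher TPM in replicate 2.

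The initiation complex and the lipid kinase complex lay at lower levels than Gabarap, Bnip3l or Bnip3. Rb1cc1, the scaffold also called FIP200, had 17.4 TPM in replicate 2 and 20.2 TPM in replicate 1. The kinase Ulk1 had 6.62 TPM in replicate 2 and 10.5 TPM in replicate 1, and the adaptor Atg13 had 4.67 TPM in replicate 2 and 6.45 TPM in replicate 1. The related kinase Ulk2 had 3.09 TPM in replicate 2 and 5.25 TPM in replicate 1. Each gene of the ULK complex in the chosen set thus had at least 1 TPM in both libraries. Atg101, another subunit of this complex, was placed in the wider list of autophagy factors described below. Atg101 had 0.83 TPM (27 counts) in replicate 2, under the limit of 1 TPM, and 1.1 TPM (26 counts) in replicate 1. In the lipid kinase complex, the catalytic subunit Pik3c3 had 4.69 TPM in replicate 2 and 7.32 TPM in replicate 1 and its partner Pik3r4 had 4.39 TPM in replicate 2 and 6.01 TPM in replicate 1. Becn1, the scaffold, had 6.19 TPM in replicate 2 and 8.82 TPM in replicate 1, and its regulator Ambra1 had 8.59 TPM in replicate 2 and 13.8 TPM in replicate 1. Atg14 and Uvrag are alternative subunits that direct the complex to autophagosome formation or to later membrane traffic. Atg14 had 1.09 TPM in replicate 2 and 2.16 TPM in replicate 1, the lowest of the detected genes by mean, and Uvrag had 2.72 TPM in replicate 2 and 4.96 TPM in replicate 1.

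The genes of membrane supply and conjugation lay in the same range. Atg2b, a lipid transfer protein, had 9.24 TPM in replicate 2 and 14.3 TPM in replicate 1, and its paralog Atg2a had 4.26 TPM in replicate 2 and 3.84 TPM in replicate 1. Atg9a, a lipid scramblase, had 5.30 TPM in replicate 2 and 9.60 TPM in replicate 1. Wipi2 and Wipi1 bind the lipid that the kinase complex makes. Wipi2 had 5.74 TPM in replicate 2 and 9.07 TPM in replicate 1, and Wipi1 had 2.01 TPM in replicate 2 and 2.92 TPM in replicate 1. In conjugation, Atg7 acts as the activating enzyme for both systems, with Atg3 and Atg10 as the enzymes that pass on LC3 and Atg12. Atg7 had 2.54 TPM in replicate 2 and 6.33 TPM in replicate 1, although both libraries had 174 counts of it. Atg3 had 7.43 TPM in replicate 2 and 12.9 TPM in replicate 1, and Atg10 had 2.63 TPM in replicate 2 and 4 TPM in replicate 1. The Atg12, Atg5 and Atg16l1 proteins form the complex that places LC3 on the membrane. Atg12 had 6.55 TPM in replicate 2 and 10.7 TPM in replicate 1, Atg5 had 3.11 TPM in replicate 2 and 4.19 TPM in replicate 1, and Atg16l1 had 8.87 TPM in replicate 2 and 10.1 TPM in replicate 1.

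The ATG4 proteases cut the LC3 and GABARAP precursors and later release them from membrane. Atg4b, the most active of them in mammals, had 10.6 TPM in replicate 2 and 17.2 TPM in replicate 1. Atg4a had 4.31 TPM in replicate 2 and 5.43 TPM in replicate 1. Atg4d had 3.39 TPM in replicate 2 and 0.85 TPM in replicate 1, below the detection limit of 1 TPM in replicate 1 alone. Atg4c, with 1 count in replicate 2 and 3 in replicate 1, was not detected above the floor. Of the transcription factors, Tfe3 had 10.9 TPM in replicate 2 and 16.4 TPM in replicate 1, and Tfeb, which like Tfe3 activates lysosome and autophagy genes, had 1.60 TPM in replicate 2 and 3.71 TPM in replicate 1. Foxo3, a forkhead factor known to activate autophagy genes with GATA1 in erythroid cells, had 13.2 TPM in replicate 2 and 14.0 TPM in replicate 1.

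To order the genes without the scale difference, TPM was rescaled to nuclear protein-coding genes other than histones. Bnip3l then had 922 units in replicate 2 and 896 in replicate 1, and Gabarap had 823 in replicate 2 and 855 in replicate 1. Bnip3 had 358 in replicate 2 and 298 in replicate 1. The same values for Sqstm1 were 271 in replicate 2 and 128 in replicate 1. The ranges of these 4 genes did not overlap between neighbours, so their order held in both libraries. It holds for TPM over all transcripts and not for the other measures. On coding transcripts alone, Gabarap (75.2 TPM in replicate 2, 122 TPM in replicate 1) and Bnip3 (41.4 in replicate 2, 54.4 in replicate 1) lay above Bnip3l (23.5 in replicate 2, 36.1 in replicate 1). Per kilobase of the longest coding transcript, Gabarap had 1896 counts in replicate 2 and 2198 in replicate 1, and Bnip3l had 1031 in replicate 2 and 1182 in replicate 1. Further down, the ranges of Sqstm1 and Rb1cc1 overlapped, as did those of Rb1cc1 and Nbr1. In all, 12 of the 39 pairs of neighbours in the order had ranges that did not overlap.

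The 2 libraries were then compared gene by gene, with counts scaled by TMM and a two-sided exact binomial test. Benjamini-Hochberg adjustment covered all 11902 genes whose counts summed to 10 or more. Of the 40 genes 38 were tested, and Atg4c and Map1lc3a had too few counts. With the limits set at a 2-fold ratio and an adjusted p of 0.05, 1 gene was higher in replicate 2, against 5.09% of all genes tested. None of the 38 was higher in replicate 1, against 2.2% of all genes tested. With edgeR's negative binomial exact test and the common dispersion (coefficient of variation 26.3%), the calls were also 1 and 0. That dispersion was estimated from the difference between these same 2 libraries, so this test adds no independent measure of the spread. At an unadjusted p under 0.05 in the binomial test, 11 genes had the higher scaled count in replicate 2, against 21.8% of all genes tested, and 3 genes in replicate 1, against 19.5%. The ratio stayed under 2-fold in either direction for 37 of the 38 genes. Most of all genes tested also did not pass both limits, since 5.09% passed as higher in replicate 2 and 2.2% in replicate 1. The erythroid maturation markers differed by a median of 11.5-fold. The part of those markers in the ratios was not tested. In bulk RNA, more cells with a transcript and more of it per cell cannot be told apart.

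Atg4d (chromosome 9, 21265293 to 21277772, plus strand) was the gene that differed. Replicate 2 had 241 counts and replicate 1 had 44, a 6.15-fold ratio with a 95% interval of 4.44 to 8.68 (adjusted p = 2.37e-37, exact binomial test). Kri1, which overlaps Atg4d on the opposite strand, had 195 counts in replicate 2 and 236 in replicate 1. The sources used here do not say whether reads were counted by strand, and reads of the overlap could then belong to either gene. The Atg4d promoter printed above is 1 of the 2 windows of the set with AGATAA or its complement (5.13%, against 11.2% of all windows). Whether this site had a part in the difference was not tested.

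Smaller differences passed the adjusted p alone. In replicate 2 they were higher for 10 genes, Atg4d included, against 17.4% of all genes tested, and in replicate 1 for 1 gene, against 14.9%. At a limit of 1.5-fold, 3 genes passed with the higher count in replicate 2, against 7.93% of all genes tested, and 0 in replicate 1, against 3.92%. For Foxo3, replicate 2 had 2535 counts and replicate 1 had 1990, a ratio of 1.43 (95% interval 1.35 to 1.52). Atg2a had a ratio of 1.70 (1.51 to 1.91), on 707 counts in replicate 2 and 467 in replicate 1. Atg16l1, Map1lc3b and Atg4a, of the conjugation step, its product and its proteases, had ratios of 1.40, 1.34 and 1.28. Pink1 had the widest interval of the genes that passed under 2-fold, with a ratio of 1.59 (1.13 to 2.25) on 85 counts in replicate 2 and 60 in replicate 1. Rb1cc1, Sqstm1 and Bnip3 passed with ratios of 1.18, 1.14 and 1.13. Atg9a was the gene higher in replicate 1, with 497 counts in replicate 2, 683 in replicate 1 and a ratio of 0.817 (0.726 to 0.918). It overlaps Ankzf1 on the opposite strand, with 363 counts in replicate 2 and 421 in replicate 1, and Gm29253 on the same strand, with 106 in replicate 2 and 142 in replicate 1. The direction of most of these small ratios depended on scaling. With counts scaled to library totals, which moved the median of all genes to -0.52 on the log2 scale, 7 of the 10 genes higher in replicate 2 had a ratio under 1. Among them Foxo3 had 0.993, Atg16l1 0.975, Map1lc3b 0.929 and Rb1cc1 0.817. Atg4d (4.27), Atg2a (1.18, 95% interval 1.05 to 1.33) and Pink1 (1.10, interval 0.785 to 1.56) stayed above 1. With spike-in totals, which moved that median to -4.49, Atg4d had a ratio of 0.272.

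The 2 genes of highest TPM over all transcripts, Bnip3l and Gabarap, did not pass. Bnip3l had 3359.8 estimated counts in replicate 2 and 3851 estimated counts in replicate 1, a ratio of 0.979 (0.935 to 1.03). For Gabarap, replicate 2 had 2561 counts and replicate 1 had 2969, a ratio of 0.968 (0.918 to 1.02). For 36 of the 38 genes the 95% interval lay within a 2-fold difference in either direction, Atg4d and Pink1 being the exceptions. The same was not counted over all genes tested. The median log2 ratio was 0.07 over the 38 genes and 0.00 over all genes tested. Intervals and floors cover counting error only.

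**Figure D2:**
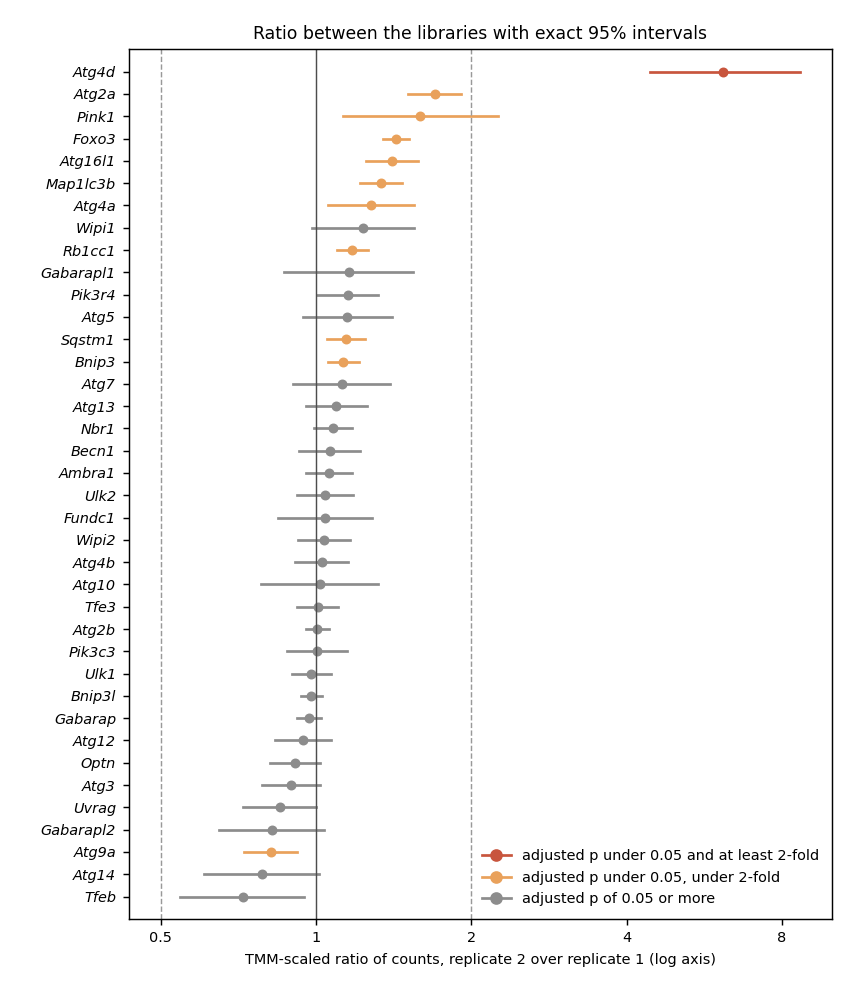
Ratio of TMM-scaled counts, replicate 2 over replicate 1 (log axis), with exact 95% intervals for the 38 genes tested; colours give the result of the binomial test and dashed lines mark a 2-fold difference. Atg4d, at 6.15-fold, lies apart from the other 37 genes, which lie between 0.721 (Tfeb) and 1.70 (Atg2a).

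Genes of the wider pathways were compared in the same way. No gene passed both limits among 24 tested genes of membrane fusion and further autophagy factors, 23 of mitophagy, 25 of the lysosome and 27 of nutrient control. Of all genes tested, 5.09% passed both limits with the higher scaled count in replicate 2 and 2.2% in replicate 1. On the adjusted p alone, 22 of the 99 pathway genes had the higher scaled count in replicate 2, against 17.4% of all genes tested. For replicate 1 it was 12, against 14.9%. By the negative binomial exact test of edgeR, 0 of the 99 passed both limits. Their median log2 ratios were 0.11, 0.01, 0.04 and 0.01. The autophagy genes with the highest TPM were Rab7, a GTPase of late endosomes (54.6 TPM in replicate 2, 95.5 TPM in replicate 1), Vmp1 (25.2 in replicate 2, 34.7 in replicate 1), a membrane protein needed for autophagosome formation, and Vps41 (10.5 in replicate 2, 18.3 in replicate 1), a subunit of a tethering complex. For mitophagy they were the outer membrane channel Vdac2 (76.4 TPM in replicate 2, 110 TPM in replicate 1), the inner membrane protein Phb2 (43.6 in replicate 2, 78.9 in replicate 1) and the receptor Fkbp8 (31.2 in replicate 2, 47.6 in replicate 1). For the lysosome they were the proton pump subunit Atp6v1b2 (70.7 TPM in replicate 2, 105 TPM in replicate 1) and the membrane proteins Lamp2 (47.6 in replicate 2, 84.6 in replicate 1) and Lamp1 (27.6 in replicate 2, 42.1 in replicate 1). For nutrient control they were Prkab1 (46.5 TPM in replicate 2, 78.4 TPM in replicate 1), a subunit of AMP kinase, Cab39 (19.7 in replicate 2, 33.2 in replicate 1) and Lamtor3 (17.6 in replicate 2, 32.7 in replicate 1).

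Most of the Bnip3l TPM lay on short transcripts without a coding sequence. Of its TPM 79.1% in replicate 2 and 78.3% in replicate 1 was assigned to transcripts that GENCODE M21 annotates as processed transcripts. Bnip3l-205, of 789 nucleotides, had 44.8 TPM in replicate 2 and 79.0 in replicate 1, and Bnip3l-204, of 354 nucleotides, had 39.6 TPM in replicate 2 and 42.4 in replicate 1. The coding transcript Bnip3l-201, of 3238 nucleotides, had 23.5 TPM in replicate 2 and 36.1 TPM in replicate 1. Counts, which are not divided by length, gave another order. Bnip3l-201 held 2149 of the gene's 3359.8 counts in replicate 2 and 2394 of 3851 in replicate 1. Of the bases of Bnip3l-205 95.9% lie in exons of Bnip3l-201, and of Bnip3l-204 94.1%. Each of these shorter transcripts thus shares most of its own sequence with Bnip3l-201, which has further sequence that neither holds. The division of reads between the 3 transcripts is the estimate of the authors' quantifier.

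**Figure D3:**
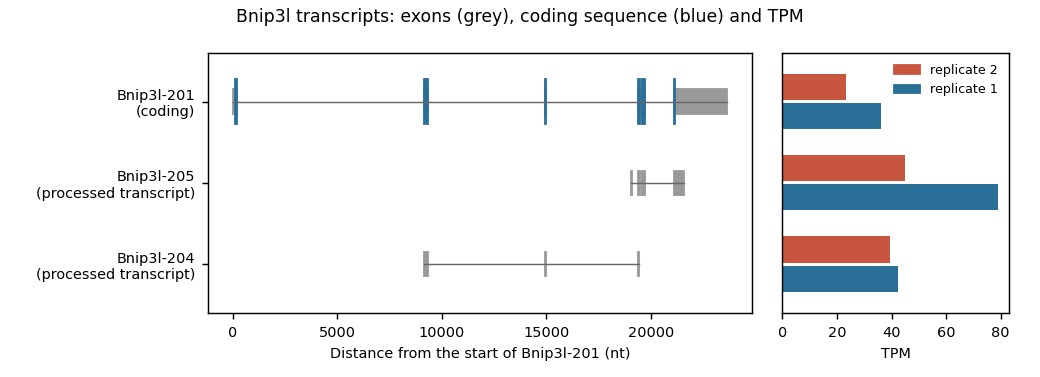
Left, exons (grey) and coding sequence (blue) of 3 Bnip3l transcripts along the distance in nucleotides from the start of Bnip3l-201; right, their TPM, with replicate 2 above replicate 1 in each pair of bars. The shorter Bnip3l-205 (44.8 TPM in replicate 2, 79.0 TPM in replicate 1) and Bnip3l-204 (39.6 TPM in replicate 2, 42.4 TPM in replicate 1) lie almost wholly within exons of the coding Bnip3l-201 (23.5 TPM in replicate 2, 36.1 TPM in replicate 1).

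The same division touched other genes. The share of TPM on coding transcripts was under 50% in both libraries for 6 of the 37 detected genes (16.2%), against 922 of 8345 detected nuclear protein-coding genes (11.0%). These were Bnip3l, Gabarapl2, Atg4b, Ambra1, Becn1 and Atg16l1. The coding share was 20.2% in replicate 2 and 17.9% in replicate 1 for Atg4b, and 28.1% in replicate 2 and 28.7% in replicate 1 for Gabarapl2. The rest of Gabarapl2 was assigned to a transcript of 749 nucleotides with a retained intron. The median coding share of the detected genes was 91.8% in replicate 2 and 91.6% in replicate 1. Over all detected nuclear protein-coding genes it was 93.3% in replicate 2 and 94.1% in replicate 1. For 8 of 29 detected genes with more than 1 transcript, the transcript with the highest share differed between the libraries. This was not counted over all detected genes, so the number cannot be read as particular to this set.

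Sqstm1 and Pik3c3 showed how far such shares moved between libraries. Sqstm1-206, a retained-intron transcript of 457 nucleotides, had 13.9 TPM in replicate 2 and 0.55 TPM in replicate 1, which was 41.2% of the gene in replicate 2 and 2.22% in replicate 1. On coding transcripts alone Sqstm1 had 18.8 TPM in replicate 2 and 23.1 TPM in replicate 1, so its higher TPM in replicate 2 was not present there. Pik3c3-204, annotated as a target of nonsense-mediated decay, took 12.8% of the gene's TPM in replicate 2 and 56.2% in replicate 1. Atg7, with equal counts in both libraries, had all of its TPM on coding transcripts in replicate 2 and 61.2% in replicate 1. With 2 libraries the error of these shares cannot be told apart from a difference between them.

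**Figure D4:**
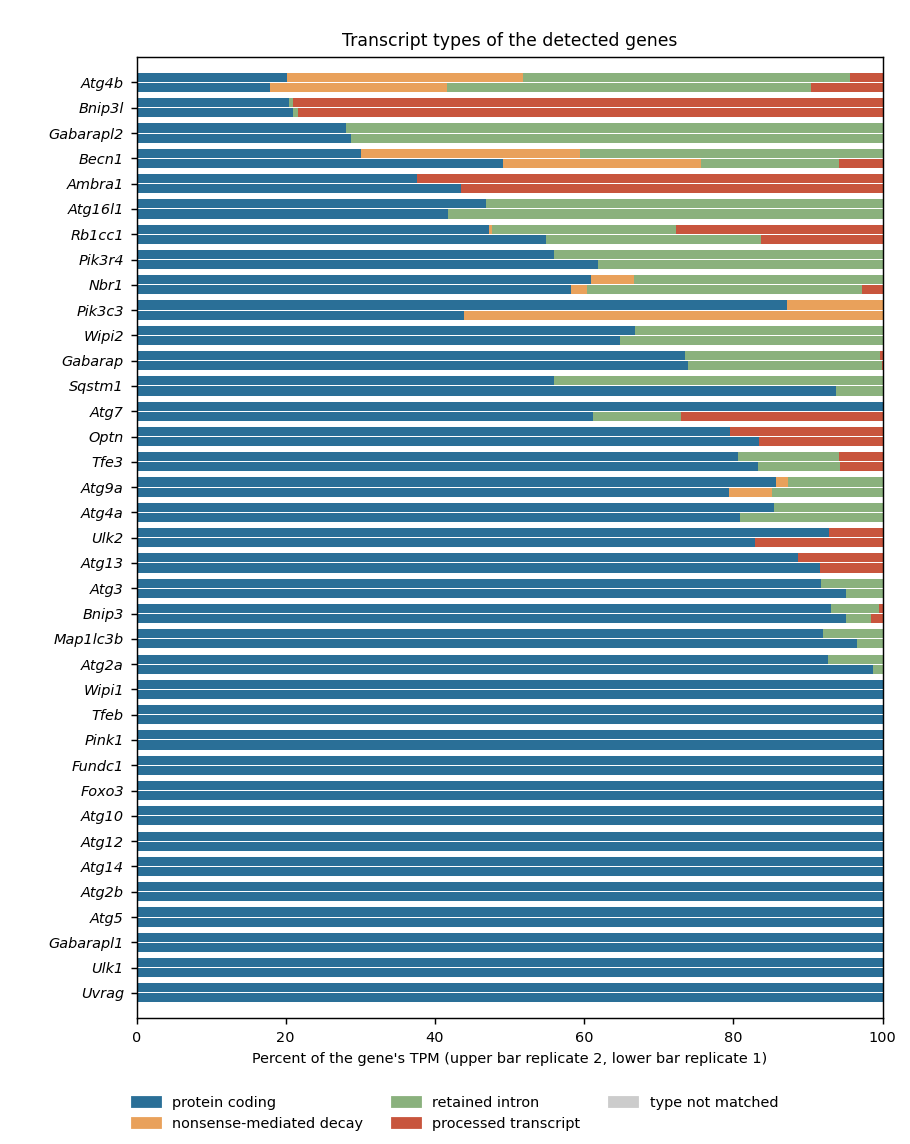
Percent of each gene's TPM by transcript type for the 37 detected genes, upper bar replicate 2 and lower bar replicate 1. Atg4b, Bnip3l and Gabarapl2 have the smallest coding shares, and Pik3c3, Atg7 and Sqstm1 show the largest differences in coding share between the libraries.

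Ratios between related genes were taken within each library, where scaling between libraries has no effect. Gabarap exceeded Map1lc3b by a log2 ratio of 2.97 ± 0.21 (SD, n = 2), which is 7.81-fold. Ulk1 exceeded Ulk2 by 1.05 ± 0.07, and Tfe3 exceeded Tfeb by 2.45 ± 0.44. Wipi2 exceeded Wipi1 by 1.57 ± 0.09. In each of these pairs the difference was larger than the SD between the libraries. The Tfeb TPM lay below the deposited bounds, which were 2.19 to 4.24 TPM in replicate 2 and 4.32 to 7.25 TPM in replicate 1. With the deposited posterior mean TPM, Tfeb averaged 4.44 TPM, against 2.66 here, and the log2 ratio of Tfe3 over Tfeb was 1.73. Of the 40 genes 4 lay outside their bounds in at least 1 library, Becn1 and Tfeb in both, Atg7 in replicate 2 and Map1lc3a in replicate 1. Atg2a was below Atg2b, with a log2 ratio of -1.51 ± 0.55, and Atg14 was below Uvrag, with -1.26 ± 0.08. The signs of these 6 ratios were the same with TPM of coding transcripts alone and with gene counts per kilobase of the longest coding transcript. Of the 13 pairs examined, the first gene was higher in both libraries in 9.

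A pair of ratios turned with the measure. Bnip3l exceeded Bnip3 by a log2 ratio of 1.48 ± 0.16 in TPM (2.78-fold), and was below it by coding TPM, with -0.71 ± 0.16. Per kilobase of the longest coding transcript the log2 ratio was 0.23 ± 0.14. Atg4b exceeded Atg4a by 1.48 ± 0.26 in TPM, with -0.65 ± 0.20 by coding TPM and 0.42 ± 0.23 per kilobase. Which gene of these pairs was higher therefore depended on the measure. Sqstm1 exceeded Nbr1 by 0.71 ± 0.71 in TPM and by 0.99 ± 0.13 in coding TPM.

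**Figure D5:**
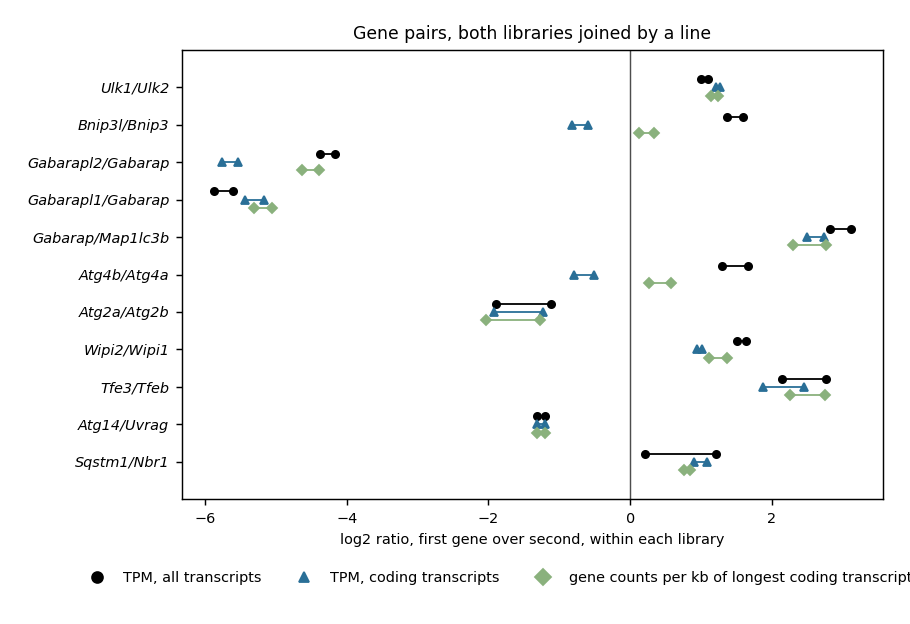
Log2 ratio of the first over the second gene of each pair drawn within a library, with both libraries joined by a line. Circles are TPM of all transcripts, triangles TPM of coding transcripts and diamonds gene counts per kilobase. The pairs Map1lc3b/Map1lc3a and Atg4d/Atg4c are not drawn. Bnip3l/Bnip3 and Atg4b/Atg4a lie on opposite sides of 0 between the TPM measures, and Gabarap/Map1lc3b stays above 2 in all 3.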

How the data were processed

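Total RNA-seq of 2 libraries of 1 cell line was analysed from gene and transcript tables. The authors' estimated counts (expected counts) are unnormalised and not always whole, and their TPM values share 1 sum over transcripts, per the file headers. A deposited percent gives each transcript's share of its gene, and other deposited columns hold bounds of TPM. The deposited file records name mm10 and GENCODE M4. The aligner and quantifier were not given in the sources used here.

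Names, positions and transcript types came from GENCODE M21 on the same assembly, matched without versions. Of 43346 genes 884 did not match. Tests left out 97 spike-in entries and 26248 entries that a number names. Estimated counts were rounded to whole numbers. The exact binomial test used TMM sizes from edgeR 4.0.16 (R 4.3.3), and intervals are Clopper-Pearson. The test was checked on counts simulated with counting error alone, so the check does not cover any further spread between libraries. With 1 group, no conditions were compared and edgeR's quasi-likelihood test had no residual degrees of freedom.

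All 40 genes are named, as are the 3 of highest mean TPM in each wider list, any gene of these lists that passed, and 2 markers. Transcripts, overlapping genes and Atg101 were named after their values were seen. The genes and lists were chosen with earlier results of these data known. Coding-transcript TPM and counts per kilobase were alternatives added after seeing the data. Other software was matplotlib 3.10.9, NumPy 2.4.6, pandas 2.3.3, SciPy 1.17.1, DESeq2 1.42.0 and Python 3.11.15.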

Additional observations from a re-analysis of the deposited data

How the results depend on the processing

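The 1 call higher in replicate 2 and the 0 calls in replicate 1 were unchanged with scaling to library totals, DESeq2 size factors or nuclear protein-coding totals, with no filter on low counts, with at least 50 counts, and with edgeR's negative binomial exact test, whose dispersion came from these same 2 libraries. With spike-in totals (10351 counts in replicate 2 and 514 in replicate 1) 0 genes were higher in replicate 2 and all 38 tested in replicate 1, as were all 99 of the wider lists, while all genes shifted by -4.49 (log2). Without a fold limit 10 and 1 passed, and at 1.5-fold 3 and 0, against 7.93% and 3.92% of all genes tested. The median log2 ratio of 0.07 reversed to -0.45 with library totals and -4.43 with spike-in totals, and that of the wider lists from 0.02 to -0.50 and -4.48, in step with the median of all genes. The median TPM of 7.03 became 43.8 when rescaled to nuclear protein-coding genes and 4.26 for coding transcripts, and was 5.11 to 8.95 with either library alone. Detected genes numbered 37, 20 at a limit of 5 TPM, and 37 to 38 with either library alone. The median share of the leading transcript was 55.1%, and 54.1% to 62.6% with either library alone. Reversed pairs were Bnip3l over Bnip3 (-0.71) and Atg4b over Atg4a (-0.65) in coding TPM, and Sqstm1 over Nbr1 (-0.040) in CPM. No paired analysis was possible because the labels give 1 group. Genes under about 100 counts have wide intervals, and 1 group of 2 libraries gives no estimate of spread between cultures.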
